A study of Homo sapiens with 6 samples.

Results

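Across 4 cultures of the ovarian cancer line A2780, 978 of 12083 genes rose and 1472 fell at every step when the cultures were put in the order of their COL11A1 level. The order was A2780-shCOL11A1, A2780 scrambled shRNA, A2780-COL11A1 and A2780CIS, and it was set by the measured COL11A1 values of the same 4 libraries. A gene was taken as a member if its mean over the 4 was at least 1 FPKM (read fragments normalized for transcript length and sequencing depth) and its value rose, or fell, at each of the 3 steps. The members were therefore chosen on the A2780 values, which are given here as a description with no test. The rising genes were 8.09% and the falling genes 12.2% of those tested. The question that the selection left free is whether the same genes moved the same way in a second line, OVCAR3, whose pair of libraries took no part in it.

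COL11A1 encodes the alpha 1 chain of type XI collagen, a minor fibrillar collagen that is built into type II collagen fibrils of cartilage and limits their diameter. In adult epithelium it is hardly made, and in carcinomas, ovarian carcinoma among them, it is known as a transcript of the activated stroma and of some tumour cells, with a recurrent link to platinum resistance. Collagen chains fold in the endoplasmic reticulum, are secreted and are read by cells through integrins and the discoidin domain receptors.

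A2780 and OVCAR3 are established human ovarian cancer lines. A2780-shCOL11A1 and A2780 scrambled shRNA had been transfected with a short hairpin RNA, against COL11A1 or scrambled. A2780-COL11A1 had been transfected with the COL11A1 gene, and no hairpin or empty vector is named for it. A2780CIS is a cisplatin-resistant derivative, obtained by long exposure to the drug with enrichment of resistant cells, and is described as having high COL11A1 of its own; OVCAR3-GFP and OVCAR3-COL11A1 had been transfected with GFP or COL11A1. All 6 were grown in RPMI with 10% FBS, and each was sequenced once, so single values carry no error and no spread between replicates exists. The steps are of different kinds, from 1 hairpin to another, from a hairpin to an overexpression construct, and from that to a drug-selected line, and COL11A1 cannot be told apart from construct type or drug selection. Adjacent steps also share a library, so a low value in 1 library lowers the step before it and raises the step after it.

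The lines stood apart by their epithelial markers. All 22 epithelial markers reached 1 FPKM in both OVCAR3 libraries, against 7 to 10 of 22 in the A2780 libraries, where CDH1 was at most 0.0675 FPKM, WT1 was listed at 0.001 FPKM and PAX8 was at most 0.0398 FPKM. VIM was 541, 720, 718 and 3897 FPKM in the 4 A2780 cultures in order, and 6.07 and 3.25 FPKM in OVCAR3-GFP and OVCAR3-COL11A1. CDH2 went the other way, at 0.579, 0.920, 0.218 and 5.94 FPKM in A2780 and 7.30 and 8.68 FPKM in OVCAR3. Of 16 EMT factors and mesenchymal markers, 8 to 10 reached 1 FPKM in the A2780 libraries. In OVCAR3-GFP and OVCAR3-COL11A1 6 and 9 of them did, so this list did not part the lines clearly. Immune markers summed to at most 4.38 FPKM in any library, PTPRC being at most 0.115 FPKM. Per the labels about 20000000 reads were made per library on average; from the steps between low values, the depth relative to A2780 scrambled shRNA was 0.879 in A2780-shCOL11A1, 1.58 in A2780-COL11A1, 0.747 in A2780CIS, 1.14 in OVCAR3-GFP and 0.501 in OVCAR3-COL11A1.

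COL11A1 itself stood at 0.670 FPKM in A2780-shCOL11A1, 4.23 in A2780 scrambled shRNA, 8.17 in A2780-COL11A1 and 297 in A2780CIS. The order is thus far from even: the middle step was 1.93-fold, the first 6.31-fold and the last 36.4-fold, and the transfected culture lay much nearer to the hairpin control than to A2780CIS. In OVCAR3 the level was 0.0258 FPKM with GFP and 1.67 FPKM with COL11A1, so the transfected OVCAR3 culture lay between the first 2 cultures of the A2780 order. The gene lies on chromosome 1 from 103342022 to 103574052 in GRCh37, the build of the table's positions, and its locus overlaps no other gene there.

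Most members moved by little at 1 or more of the steps. On the scale log2(FPKM + 1), the smallest step had a median of 0.07 among the rising and 0.09 among the falling genes, and it was under 0.1 in 637 of 978 (65.1%) and in 850 of 1472 (57.7%). Every step reached 0.25, a size used here to call a step clear, in 56 rising genes (0.463% of all tested) and 131 falling genes (1.08%). The change from the first to the last culture reached 1, about a doubling or a halving, in 323 rising (33.0%) and 633 falling genes (43.0%). The last step, into A2780CIS, was the largest of the 3 in 585 rising genes (59.8%) and 881 falling genes (59.9%), against 64.4% of all genes tested. The hairpin step was the largest in 136 rising (13.9%) and 123 falling genes (8.36%), against 9.48% of all genes tested.

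**Figure D1:**
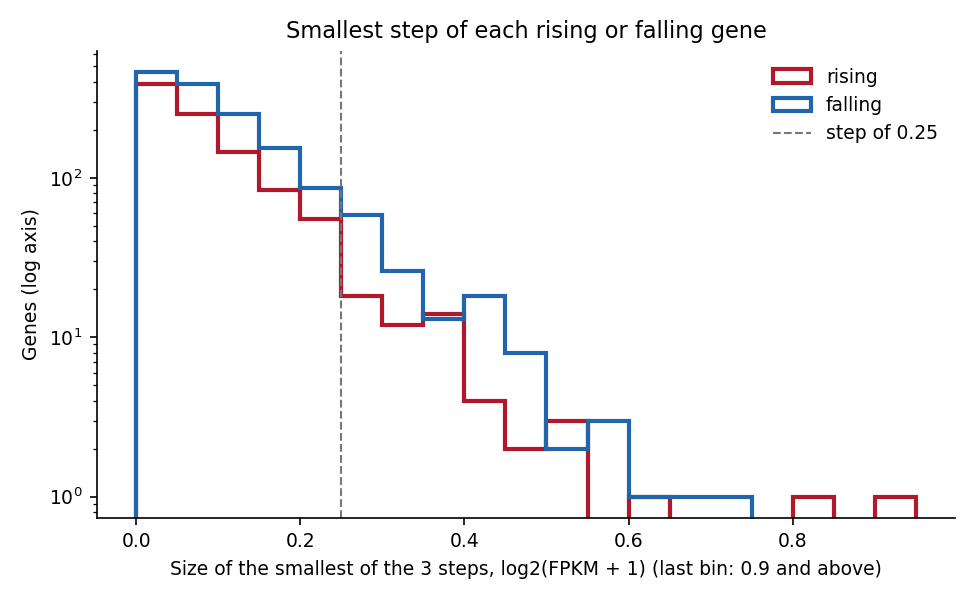
Size of the smallest of the 3 steps on log2(FPKM + 1) (x axis) against the number of genes (y axis, log scale) for the 978 rising and 1472 falling genes. Both curves drop steeply, and 56 rising and 131 falling genes lie at or beyond the dashed line at 0.25.

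The largest smallest steps among rising genes belonged, after COL11A1, to genes of unlike roles. SNHG3, a host gene of small nucleolar RNAs, was at 6.96, 11.5, 21.0 and 35.7 FPKM in the order of the cultures; its locus overlaps another gene, so reads may belong to either. HSPB11, a subunit of the intraflagellar transport machinery of cilia, was at 9.17, 15.1, 22.2 and 39.5 FPKM. These steps were of similar size, between 0.65 and 0.82 for SNHG3 and between 0.53 and 0.80 for HSPB11. WWC3, of the WWC family that acts on Hippo signalling, was at 2.17, 3.57, 7.29 and 10.9 FPKM. GSTO1, a glutathione transferase, was at 20.0, 29.9, 54.0 and 77.4 FPKM. CIB1, a calcium- and integrin-binding protein, was at 18.0, 27.3, 38.4 and 63.4 FPKM. In each of these the values spread over all 4 cultures, with no culture standing far from the others.

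RPL22L1, a paralogue of a ribosomal protein, made its largest step in the middle, at 10.1, 13.7, 31.6 and 42.9 FPKM. DNAJC12, a J-domain co-chaperone of the aromatic amino acid hydroxylases, was at 1.88, 2.78, 5.07 and 49.0 FPKM, and DERL3, which serves degradation of misfolded proteins at the endoplasmic reticulum, at 1.47, 2.59, 3.68 and 11.6 FPKM. Both resembled COL11A1 in that A2780CIS stood far above the other 3. The aminoacylase ACY1, the ubiquitin ligase LRSAM1, the palmitoyltransferase family member ZDHHC1, SEC22C, CCDC74B and FAM111B complete the 15 largest, with smallest steps from 0.38 to 0.45. Of the 15, SNHG3, ACY1, CCDC74B, SEC22C and DERL3 overlap another locus. SNORA51, a small nucleolar RNA named here after its values were seen, had a smallest step of 1.06, beyond that of COL11A1, but poly-A selection recovers such RNAs poorly and it was left out of the ranking.

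**Figure D2:**
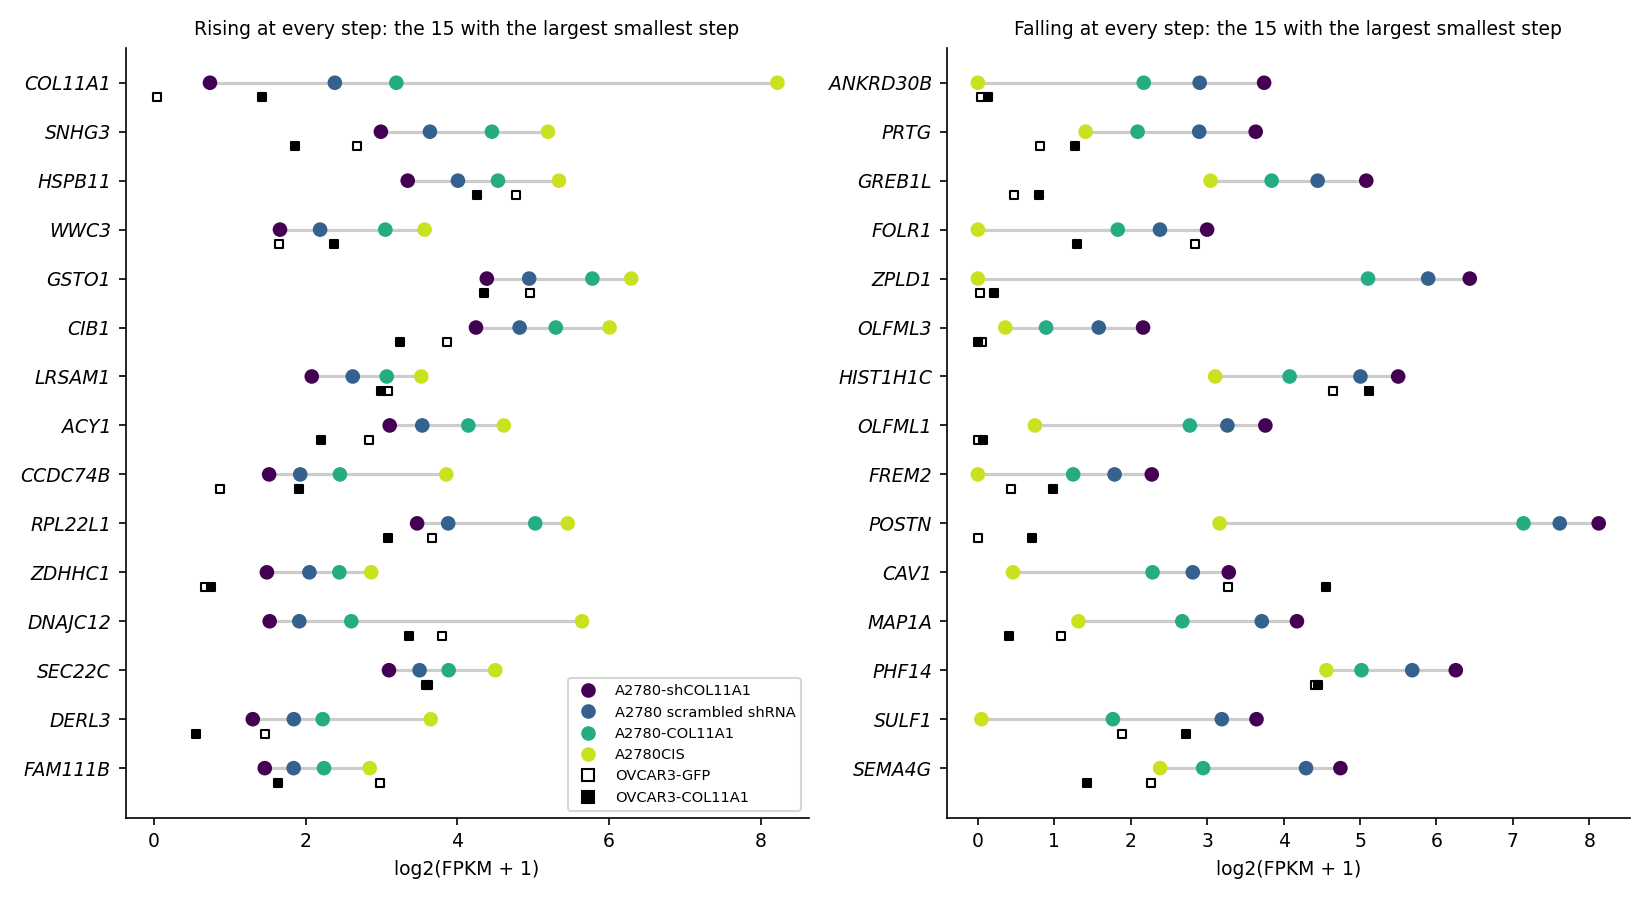
Level of the 15 rising (left) and 15 falling (right) genes with the largest smallest step, as log2(FPKM + 1). Circles are the 4 A2780 cultures, 1 library each, and squares below each gene are OVCAR3-GFP (open) and OVCAR3-COL11A1 (filled). COL11A1 runs from 0.670 to 297 FPKM. In 11 of the falling genes the filled square lies to the right of the open one. Of the 15 falling genes, 8 averaged under 1 FPKM over the OVCAR3 pair.

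Falling genes were led by ANKRD30B, whose locus overlaps another gene, at 12.4, 6.48, 3.50 and 0.001 FPKM, the last being the lowest value of the table. POSTN, encoding periostin, a matrix protein that binds integrins, was at 278, 195, 140 and 7.96 FPKM. SULF1, an extracellular sulfatase that trims heparan sulfate, was at 11.5, 8.14, 2.41 and 0.0343 FPKM, and FREM2, a basement membrane protein, at 3.84, 2.46, 1.38 and 0.001 FPKM. In all 3 the largest step was the last, into A2780CIS. POSTN is also a fibroblast marker: 6 to 9 of the 11 fibroblast markers reached 1 FPKM in the A2780 libraries, with sums of 536, 471, 307 and 605 FPKM in order, none of them at 0.001 FPKM except 1 in A2780CIS, and the part of such cells in the result was not tested.

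FOLR1, the folate receptor alpha that ovarian carcinomas often carry, was at 6.999, 4.22, 2.56 and 0.001 FPKM. ZPLD1, a zona pellucida domain protein, was at 85.5, 58.4, 33.4 and 0.001 FPKM. PRTG, an immunoglobulin-superfamily receptor of the early embryo, was at 11.4, 6.45, 3.26 and 1.66 FPKM. The last 2 differ in kind, since PRTG lost about as much at each step while ZPLD1 was not detected in A2780CIS. GREB1L, a relative of the oestrogen-responsive GREB1, was at 32.9, 20.8, 13.4 and 7.25 FPKM, and HIST1H1C, the linker histone H1.2, at 44.2, 31.1, 15.9 and 7.61 FPKM. CAV1, the coat protein of caveolae, was at 8.74, 6.03, 3.88 and 0.376 FPKM. In all, 53 falling genes were listed at 0.001 FPKM in A2780CIS, the shallowest of the 4 A2780 libraries, and the part of depth in this was not tested; no rising gene was at that value there, and 7 were in A2780-shCOL11A1.

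The genes of each direction move together by the rule that chose them, so promoters of leading members are given as a description only. None of the known letter patterns searched was held by all of those shown, and no search for other shared patterns was made. The 120 bases before the start are shown from RefSeq (GRCh38.p14) for the 4 leading genes of each direction with 1 listed start and a locus of their own, with the GC box GGGCGG, the CCAAT box CCAAT and the TATA box TATAAA on either strand in capitals; the E-box CACGTG, the cyclic AMP response element TGACGTCA and the AP-1 site TGANTCA were searched too and were not present in these windows. In the same window of 27305 RefSeq genes, 34.0% held the GC box, 21.2% the CCAAT box and 6.01% the TATA box. COL11A1 (chr1:103108523-103108642, minus strand) held a GC box and a CCAAT box, WWC3 (chrX:10015134-10015253, plus strand) and GSTO1 (chr10:104254772-104254891, plus strand) a GC box, RPL22L1 (chr3:170870196-170870315, minus strand) a TATA box, PRTG (chr15:55743153-55743272, minus strand) and GREB1L (chr18:21242112-21242231, plus strand) more than 1 GC box, overlapping in GREB1L, and ZPLD1 (chr3:102434895-102435014, plus strand) a TATA box and OLFML3 (chr1:113979354-113979473, plus strand) a GC box. OLFML3, an olfactomedin-like secreted protein, was at 3.48, 1.995, 0.858 and 0.284 FPKM. A match is a description and no site. Only 772 of 978 rising genes (78.9%) had a listed promoter, too few for a share of motifs over the rising genes.
COL11A1: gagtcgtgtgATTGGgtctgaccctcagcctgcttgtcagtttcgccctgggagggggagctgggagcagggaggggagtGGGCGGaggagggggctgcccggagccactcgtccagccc
WWC3: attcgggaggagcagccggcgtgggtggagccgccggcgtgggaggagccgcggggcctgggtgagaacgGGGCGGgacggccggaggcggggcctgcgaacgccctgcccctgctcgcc
GSTO1: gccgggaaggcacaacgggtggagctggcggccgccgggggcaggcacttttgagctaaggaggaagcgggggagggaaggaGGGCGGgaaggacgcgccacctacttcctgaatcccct
RPL22L1: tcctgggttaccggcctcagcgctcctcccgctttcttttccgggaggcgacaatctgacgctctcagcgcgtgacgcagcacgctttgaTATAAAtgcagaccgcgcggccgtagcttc
PRTG: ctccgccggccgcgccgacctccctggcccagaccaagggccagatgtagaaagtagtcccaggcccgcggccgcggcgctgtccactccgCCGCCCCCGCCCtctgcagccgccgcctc
GREB1L: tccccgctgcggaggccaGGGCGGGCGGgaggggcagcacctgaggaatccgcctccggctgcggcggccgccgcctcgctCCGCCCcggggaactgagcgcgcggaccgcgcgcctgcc
ZPLD1: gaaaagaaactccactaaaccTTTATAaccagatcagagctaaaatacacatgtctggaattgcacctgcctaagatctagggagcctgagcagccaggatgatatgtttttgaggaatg
OLFML3: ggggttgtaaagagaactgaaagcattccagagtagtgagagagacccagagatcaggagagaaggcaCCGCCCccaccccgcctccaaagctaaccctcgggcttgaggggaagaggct

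In OVCAR3, the members did not move the same way more often than other genes did. Of the 887 rising genes that averaged 1 FPKM or more over the OVCAR3 pair, 441 were higher in OVCAR3-COL11A1, or 49.7%, beside 53.9% of all 10693 genes measured in both lines. Of the 1273 falling genes so measured, 504 were lower, or 39.6%, beside 46.1%. The remaining 91 rising and 199 falling genes were under that mean. The median OVCAR3 difference was 0.00 for the rising and 0.15 for the falling genes, against 0.06 for all, so the falling genes stood a little higher in the culture with more COL11A1. Neither share has a test, since each OVCAR3 culture was sequenced once.

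The clear steps gave lower shares still. Of 49 measured genes with a clear rise, 18 (36.7%) were higher in OVCAR3-COL11A1, and of 90 with a clear fall, 32 (35.6%) were lower. With a difference of at least 0.5 on log2(FPKM + 1), 169 rising genes (19.1%) were higher, beside 22.6% of all genes, and 192 falling genes (15.1%) were lower, beside 17.5%. In the opposite direction and by at least that size moved 184 rising genes (20.7%), beside 17.5% of all genes that were lower. So did 341 falling genes (26.8%), beside 22.6% of all genes that were higher.

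The library of A2780-shCOL11A1 decided on which side of the background these shares lay. Without it, over the other 3 cultures, 58.1% of rising genes were higher and 49.1% of falling genes lower in OVCAR3-COL11A1, both above the background. Without A2780 scrambled shRNA, A2780-COL11A1 or A2780CIS the shares were 53.6%, 48.5% and 45.4% for rising and 45.1%, 38.1% and 37.2% for falling genes. Taken singly over all genes, those higher in A2780 scrambled shRNA than in A2780-shCOL11A1 were higher in OVCAR3-COL11A1 in 45.1% of cases, those higher in A2780-COL11A1 than in A2780 scrambled shRNA in 53.4%, and those higher in A2780CIS than in A2780-COL11A1 in 57.5%. The hairpin step and the OVCAR3 pair thus moved fewer genes the same way than the share of all genes, and the step into A2780CIS more.

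**Figure D3:**
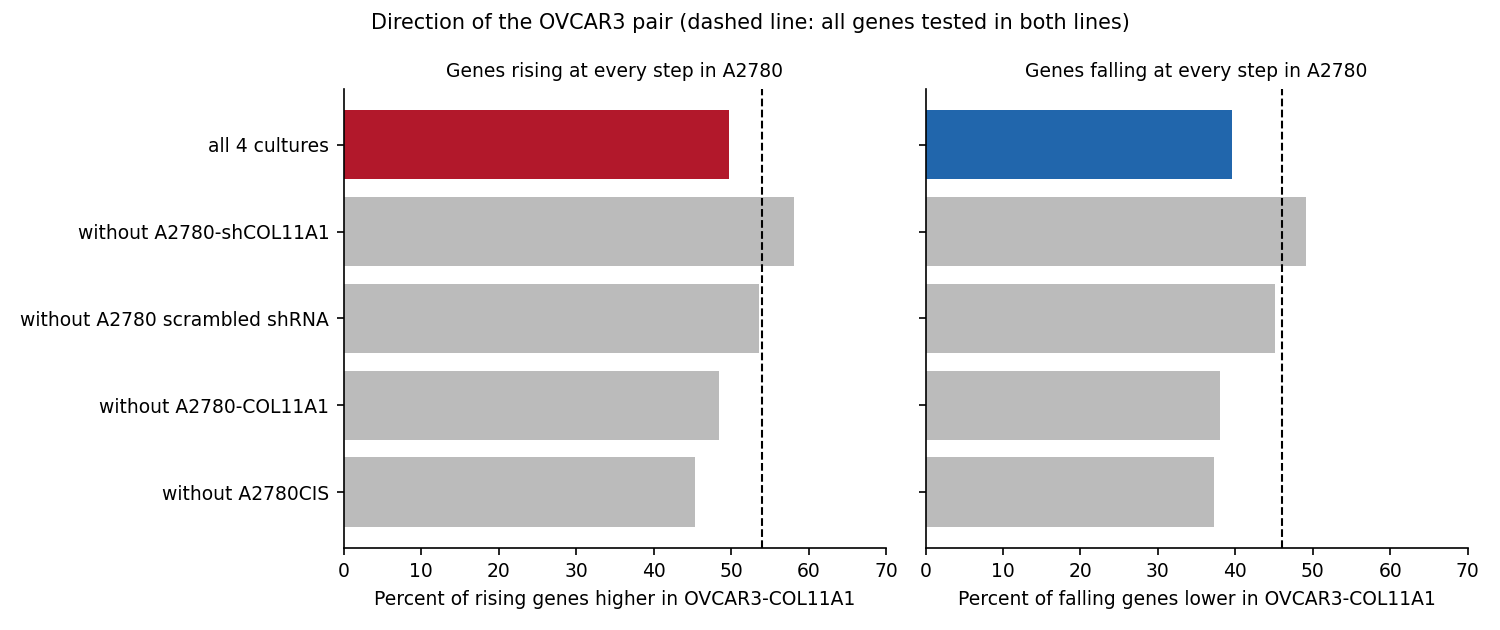
Percent of the rising genes that were higher (left) and of the falling genes that were lower (right) in OVCAR3-COL11A1 than in OVCAR3-GFP, with all 4 A2780 cultures in the order (coloured) or 1 left out (grey). The dashed lines are the shares among all genes measured in both lines, 53.9% and 46.1%, and both shares pass them only without A2780-shCOL11A1.

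A smaller number of members did move the same way in both lines. Ranked by the smaller of the smallest A2780 step and the OVCAR3 difference, WWC3 came first after COL11A1, which itself averaged under 1 FPKM over the pair, with 2.13 FPKM in OVCAR3-GFP and 4.19 in OVCAR3-COL11A1. CCDC74B was at 0.832 and 2.78 FPKM there, and RBMS1, an RNA-binding protein, at 6.22 and 11.1 FPKM after 1.76, 2.53, 4.55 and 12.9 FPKM in A2780. PHYH, the phytanoyl-CoA hydroxylase of peroxisomes, was at 20.1, 24.3, 31.7 and 56.1 FPKM in A2780 and at 7.44 and 13.2 FPKM in OVCAR3. ACAD11, an acyl-CoA dehydrogenase, was at 7.22, 9.74, 14.0 and 17.1 FPKM and then at 6.05 and 13.01 FPKM. Both enzymes take part in fatty acid breakdown, and the OVCAR3 differences were 0.75 for PHYH and 0.99 for ACAD11. TMEM30A, the partner subunit of lipid flippases, EFHD1, a mitochondrial calcium-binding protein, IGFBP7, a secreted insulin-like growth factor-binding protein, and VPS16, of endosomal tethering complexes, were the others of the 10, with OVCAR3 differences from 0.36 to 0.94. The loci of CCDC74B, VPS16, RBMS1, IGFBP7 and ACAD11 overlap another gene.

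Among falling genes the same direction was led by FOLR1, at 6.20 FPKM in OVCAR3-GFP and 1.47 in OVCAR3-COL11A1. VAV3, a guanine nucleotide exchange factor, was at 21.7, 15.7, 4.31 and 0.001 FPKM in A2780 and at 19.9 and 6.58 FPKM in OVCAR3. The microtubule protein gene MAP1A was at 17.1, 12.1, 5.39 and 1.49 FPKM and then at 1.13 and 0.325 FPKM. In these 3 genes OVCAR3-COL11A1 was below OVCAR3-GFP by 0.68 to 1.54 on log2(FPKM + 1). The semaphorin SEMA4G (3.81 and 1.69 FPKM in OVCAR3) and GDF11, a secreted growth factor of the TGF-beta family (5.02 and 2.52 FPKM), were lower too. MIR17HG, the host transcript of the miR-17-92 cluster, C10orf10, SYNE2, GATSL1 and VANGL1, a planar polarity protein, completed the 10, with differences from -0.39 to -0.93. MAP1A, MIR17HG (0.658 and 0.255 FPKM) and C10orf10 (0.387 and 0.001 FPKM) averaged under 1 FPKM over the OVCAR3 pair and are not among the measured genes of the shares above. Of the 10, SEMA4G, MAP1A, VAV3, MIR17HG, GDF11 and C10orf10 overlap another locus.

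Among gene lists with more than 10 measured members, the cytosolic ribosomal proteins held the largest share of rising genes. Of 55 measured, 19 (34.5%) rose at every step and 0 fell, beside 8.09% and 12.2% of all genes, and the median change from first to last culture was 0.31 against -0.07 for all genes. The single steps were small: the smallest had a median of 0.05 among the 19 and reached 0.1 in 2 of them. RPS3 was at 660, 751, 820 and 1023 FPKM, RPL7 at 1670, 1901, 2045 and 2834 FPKM, and RPS20 at 906, 998, 1056 and 1760 FPKM. The count rests on the scaling: after quantile normalization within each line it was 3 rising and 4 falling, with a median change of -0.04, while scaling by median ratios gave 23 rising and 0 falling. In OVCAR3 the 55 went the other way, all 55 being lower in OVCAR3-COL11A1, with a median difference of -0.70; RPS3 was at 2107 FPKM with GFP and 1073 FPKM with COL11A1. Many such genes have closely similar processed pseudogenes, and how reads were divided among them is not given in the sources used here.

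Transcripts of ribosomal proteins commonly begin with a run of pyrimidines that ties their translation to growth signals, shown here because it is the sequence feature the group is known for. Of the 44 with a RefSeq promoter, out of 55, the first 5 transcribed bases were all C or T in 29 (65.9%), against 5.22% of 27305 RefSeq genes. The 20 bases before and 10 after the start are given for 4 of the rising members with 1 listed start. The run of C and T from the start is in capitals, and RPL27 has no such run at its listed start. The 4 are examples and not the members with the largest total change. RPS20 (0.958) and RPL7 (0.763) changed more than RPL27 (0.668) and RPS3 (0.630) and are not shown. The 4 genes shown are RPL27 (chr17:42998399-42998428, plus strand), RPS3 (chr11:75399498-75399527, plus strand), RPS6 (chr9:19380227-19380256, minus strand) and RPL31 (chr2:101002269-101002298, plus strand), all in GRCh38.p14. RPS6 was at 2032, 2161, 2436 and 3138 FPKM, RPL27 at 1717, 1739, 2070 and 2730 FPKM and RPL31 at 1756, 2024, 2099 and 2558 FPKM in the 4 A2780 cultures.
RPL27: cctcaccggggtgaaaggttagcggaagtg
RPS3: cttccgcccgcgagccacttCCTTTCCTTT
RPS6: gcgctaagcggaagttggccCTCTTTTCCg
RPL31: ctcccacaatccttcgcgctCTTCCTTTCC

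Fatty acid beta-oxidation, which shortens fatty acids in mitochondria and peroxisomes, had 7 rising and 0 falling genes of 25 measured (28.0%), with a median total change of 0.34. Of all genes tested 8.09% rose and 12.2% fell. CPT1A, which admits long-chain fatty acids to mitochondria, was at 6.43, 7.36, 7.46 and 25.7 FPKM, so nearly all its change was the step into A2780CIS. ACAA2, a mitochondrial thiolase, was at 38.0, 41.3, 63.3 and 82.4 FPKM, and ECI2, an isomerase for unsaturated acids, at 38.1, 48.1, 53.4 and 66.4 FPKM. ACADS, the short-chain dehydrogenase, was at 2.41, 2.75, 3.55 and 6.79 FPKM, and HADHA and ACAA1 also rose at every step. Both scalings gave 9 rising and 0 falling genes. In OVCAR3, 8 of the 24 measured members were higher with COL11A1; CPT1A was at 60.3 FPKM with GFP and 36.7 FPKM with COL11A1.

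Fatty acid synthesis and activation had 4 rising and 2 falling genes of 15 (26.7% and 13.3%), beside 8.09% and 12.2% of all genes. SCD, which desaturates stearate, was at 250, 283, 310 and 605 FPKM, and ACSL1 and ACSL4, which attach coenzyme A, at 3.91, 4.29, 6.07 and 21.7 FPKM and at 3.52, 5.20, 7.001 and 14.0 FPKM. In OVCAR3 2 of the 15 were higher with COL11A1, and SCD was at 897 FPKM with GFP and 370 FPKM with COL11A1. The cholesterol synthesis list had MSMO1 as its single rising gene of 22 and none falling, and 0 of the 22 were higher in OVCAR3-COL11A1, with a median difference of -1.33.

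Collagens rose or fell singly. Beside COL11A1, COL5A1, its partner in type V and mixed fibrils, was at 1.09, 1.44, 1.64 and 1.85 FPKM, and COL4A5 and COL4A6, chains of basement membrane collagen encoded head to head on the X chromosome, fell, from 15.6 to 6.45 FPKM and from 2.38 to 0.0288 FPKM. These were 2 rising and 2 falling genes of 15 (13.3% each), beside 8.09% rising and 12.2% falling among all genes. Each share in this paragraph rests on few genes. Matrix glycoproteins had 0 rising and 4 falling genes of 14 (28.6%): POSTN, the laminin chains LAMA1 and LAMA5, and the nidogen NID2, at 10.3, 8.09, 7.44 and 0.189 FPKM. Genes for collagen folding and crosslinking had 0 rising and 1 falling of 17 (5.88%), LOXL3, a lysyl oxidase. Of 15 collagen receptors and their effectors measured, SRC and PTK2 rose (13.3%). ITGA1, the alpha 1 integrin chain that binds collagen, fell (6.67%), from 7.99 to 0.0399 FPKM.

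By their median steps, the lists of innate immunity and antigen presentation fell mainly at the step into A2780CIS. Of 24 interferon response genes 6 fell (25%, beside 12.2% of all genes) and 1 rose, with a median total change of -1.32. BST2, which tethers enveloped viruses, was at 416, 409, 303 and 0.497 FPKM, and ISG15, a ubiquitin-like modifier, at 121, 113, 98.4 and 32.4 FPKM. IRF9, which joins the STAT proteins on interferon-stimulated genes, was at 36.2, 33.0, 25.6 and 10.2 FPKM, and XAF1 at 8.72, 5.60, 4.46 and 1.71 FPKM. The drop was mainly into A2780CIS: over the other 3 cultures 8 of the 24 rose and 8 fell (33.3% each), beside 24.1% and 29.6% of all genes. In MHC class I presentation 4 of 18 fell (22.2%), namely HLA-E, the peptide transporter TAP2, its partner TAPBP and the proteasome subunit PSMB8, and CANX rose. The list's median steps were 0.06, -0.001 and -1.64 in order. TAP2 was at 52.8, 49.6, 48.0 and 14.2 FPKM.

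Of 13 BCL2 family genes, which regulate apoptosis, 5 fell (38.5%, beside 12.2% of all genes), the largest share of any list with more than 10 measured members, and these hold both survival genes (BCL2L1, at 30.8, 27.1, 21.2 and 14.3 FPKM, and BCL2L2) and death genes (BAK1, BBC3 and HRK). BID, a death gene, was the 1 that rose. The smallest step was 0.18 in BCL2L1, 0.06 in BBC3 and in HRK, and 0.003 in BCL2L2. In OVCAR3, 8 of the 12 measured BCL2 family genes were higher with COL11A1, BCL2L1 among them. Of 5 measured inhibitors of apoptosis BIRC2 rose, at 12.8, 15.04, 24.7 and 41.8 FPKM, and it was also higher in OVCAR3-COL11A1, at 18.9 against 10.9 FPKM. Of 12 NF-kB subunits and targets BCL3 and NFKBIE rose and 0 fell, and 10 of the 12 were higher in OVCAR3-COL11A1. In the Hippo list 4 of 13 fell, TEAD2, TEAD4, AJUBA and LATS2, and WWTR1, the co-activator TAZ, rose at steps as small as 0.00.

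**Figure D4:**
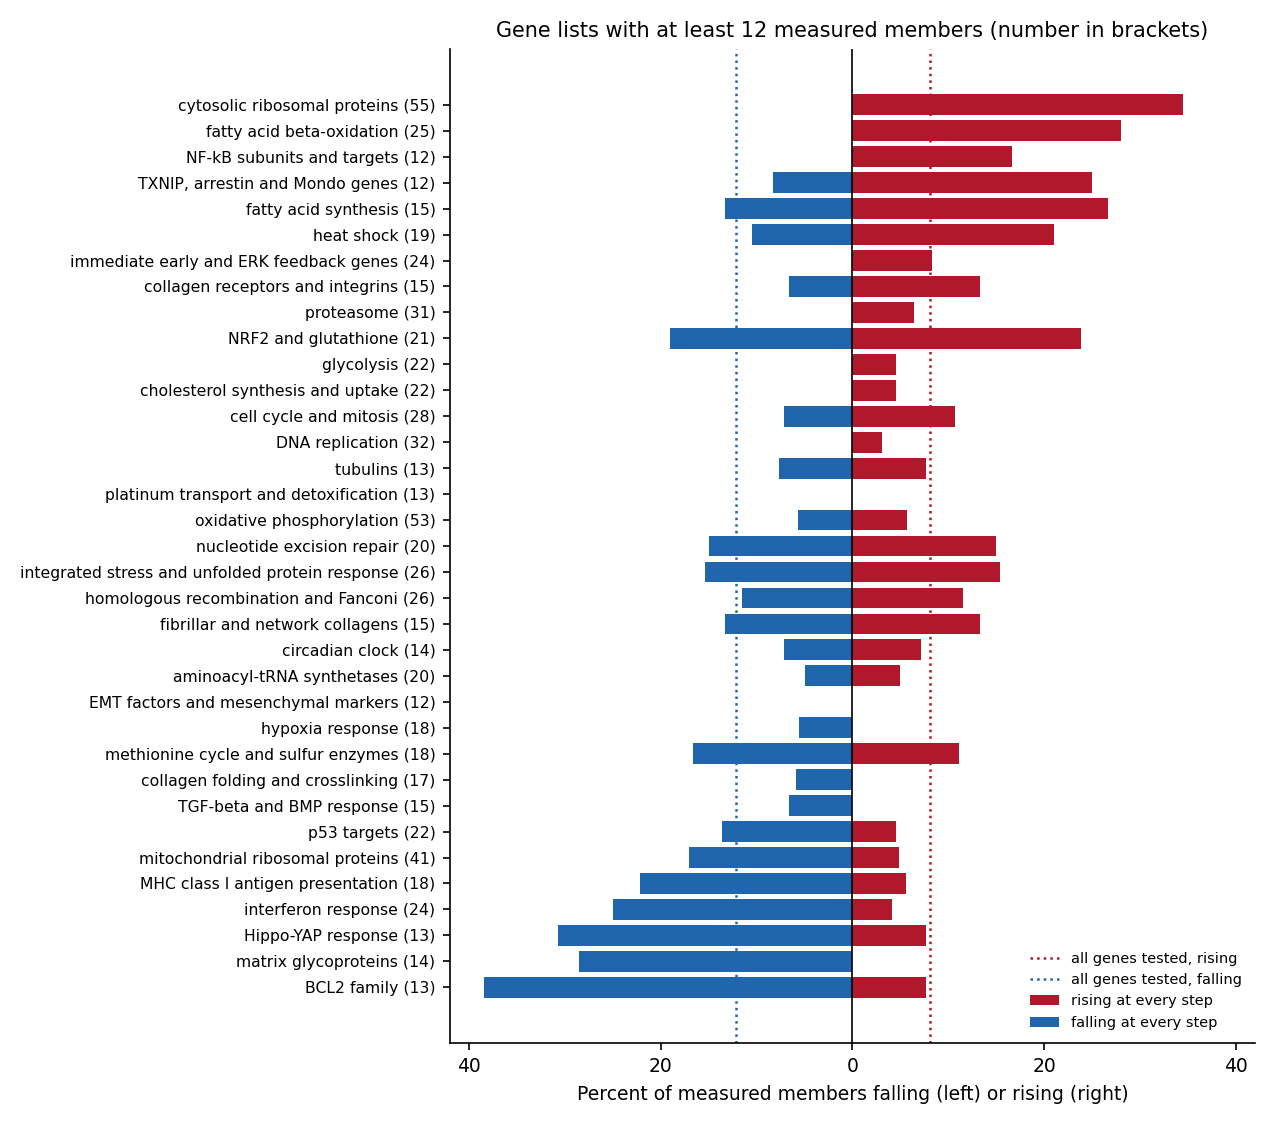
Percent of the measured members of each gene list that rose (right, red) or fell (left, blue) at every step, for lists with at least 12 measured members, with the number measured in brackets. Dotted lines mark all genes tested, at 8.09% rising and 12.2% falling; cytosolic ribosomal proteins reach 34.5% rising and the BCL2 family 38.5% falling.

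Lists often studied for platinum response lay on both sides of the 8.09% rising and 12.2% falling of all genes. Of 13 platinum transport and detoxification genes 0 rose and 0 fell at every step, and of 12 EMT factors and mesenchymal markers likewise 0. Nucleotide excision repair, which removes platinum adducts, had 3 rising genes of 20, among them DDB2 and ERCC8, and 3 falling genes, XPA, ERCC3 and ERCC6. Homologous recombination and Fanconi genes had 3 and 3 of 26 (11.5% each), with BRCA2 at 3.31, 2.46, 1.62 and 1.42 FPKM. Of 8 mismatch repair genes EXO1 and PCNA rose and MSH6 fell. In the glutathione and NRF2 list 5 of 21 rose (23.8%), among them GCLC, the rate-limiting ligase of glutathione synthesis, and GSR, and 4 fell (19.0%), among them NFE2L2, the gene of NRF2 itself. GCLC was at 10.2, 10.3, 14.3 and 18.7 FPKM and in OVCAR3 at 29.3 FPKM with GFP and 13.9 FPKM with COL11A1. Each of these shares rests on few genes.

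The lists of proliferation and energy supply held 1 to 3 rising genes each, too few to set their shares apart from the 8.09% of all genes. DNA replication had 1 rising gene of 32, PCNA, the sliding clamp of DNA polymerases, at 70.2, 98.7, 149 and 180 FPKM, and it was lower in OVCAR3-COL11A1, at 31.2 against 69.3 FPKM. The cell cycle list had 3 rising (CCNA2, CCNE2, CDK1, or 10.7%) and 2 falling genes (CENPE, CENPF) of 28. Oxidative phosphorylation had 3 rising (5.66%) and 3 falling genes of 53, the proteasome 2 and 0 of 31, and glycolysis 1 and 0 of 22. Mitochondrial ribosomal proteins had 2 and 7 of 41, while all MRPL and MRPS genes counted by name had 7 (8.86%) and 13 of 79. The heat shock list had 4 rising (HSP90AA1, HSP90AB1, AHSA1, CHORDC1), all of the HSP90 system and together 21.1%, and 2 falling genes of 19; HSP90AB1 was at 525, 600, 663 and 835 FPKM. Of the ovarian lineage list only 4 genes were measured in A2780, and 3 fell: FOLR1, BCAM and PAX2, the last at 42.4, 41.98, 24.6 and 0.0238 FPKM.

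Of gene families counted by name, the histone genes of the HIST clusters had 0 rising and 11 falling genes of 35 (31.4%), the protocadherins 0 and 8 of 23 (34.8%), and the ZNF zinc finger genes 14 and 68 of 389 (3.60% and 17.5%). Of all genes tested 8.09% rose and 12.2% fell. Histone levels in poly-A libraries reflect only the polyadenylated part of these mostly non-polyadenylated RNAs, and sequence likeness within each family can divide reads between members. The protocadherin members were PCDH15, PCDH19 and 6 genes of the beta cluster, and the most abundant falling histone gene was HIST1H2BK, at 203, 189, 132 and 70.05 FPKM. Under both scalings the falling counts stayed at 10 or 11 for histones and 6 or 8 for protocadherins. Without A2780CIS 6 histone genes rose (17.1%) and 11 fell (31.4%), near the 29.6% of all genes that fell there, while 24.1% of all rose. In that setting 1 protocadherin rose and 13 fell (56.5%), and 28 ZNF genes rose and 203 fell (52.2%).

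By position, chromosome 13 held 46 falling genes of 191 tested (24.1%) and 6 rising (3.14%), beside 12.2% and 8.09% of all genes. Its median step into A2780CIS was -0.66 against -0.02 over all genes. Without A2780CIS this was not seen: over the other 3 cultures 47 genes rose (24.6%) and 56 fell (29.3%) there, with a median total of 0.02. Of all genes 24.1% rose and 29.6% fell over those cultures. POSTN, FREM2 and MIR17HG lie on this chromosome, as do NBEA (61.4, 48.1, 26.8 and 0.428 FPKM) and TRPC4 (29.2, 24.3, 15.8 and 0.101 FPKM), the latter named after their values were seen. Chromosome 8 was the reverse, with 56 rising (14.0%) and 31 falling genes (7.75%) of 400 and a median last step of 0.33. It was likewise lost without A2780CIS, at 91 rising (22.8%) and 106 falling (26.5%).

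No tested neighbour of COL11A1 rose at every step. Within 10 Mb of its locus on chromosome 1, 87 genes were tested, COL11A1 among them. COL11A1 itself rose by construction, since its values set the order. Of the 87 genes 25 fell (28.7%), and their median last step was -0.75 over all 87. Of all genes tested 8.09% rose and 12.2% fell. Among the 25 that fell, DPYD, which degrades pyrimidines, was at 4.81, 3.95, 3.18 and 0.001 FPKM, VAV3 reached 0.001 FPKM, and the lactate transporter SLC16A1 was at 87.4, 73.0, 68.7 and 28.6 FPKM. Over the 3 cultures other than A2780CIS 25 of the 87 rose (28.7%) and 29 fell (33.3%), beside 24.1% and 29.6% of all genes. DNA copy number was not analysed here.

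**Figure D5:**
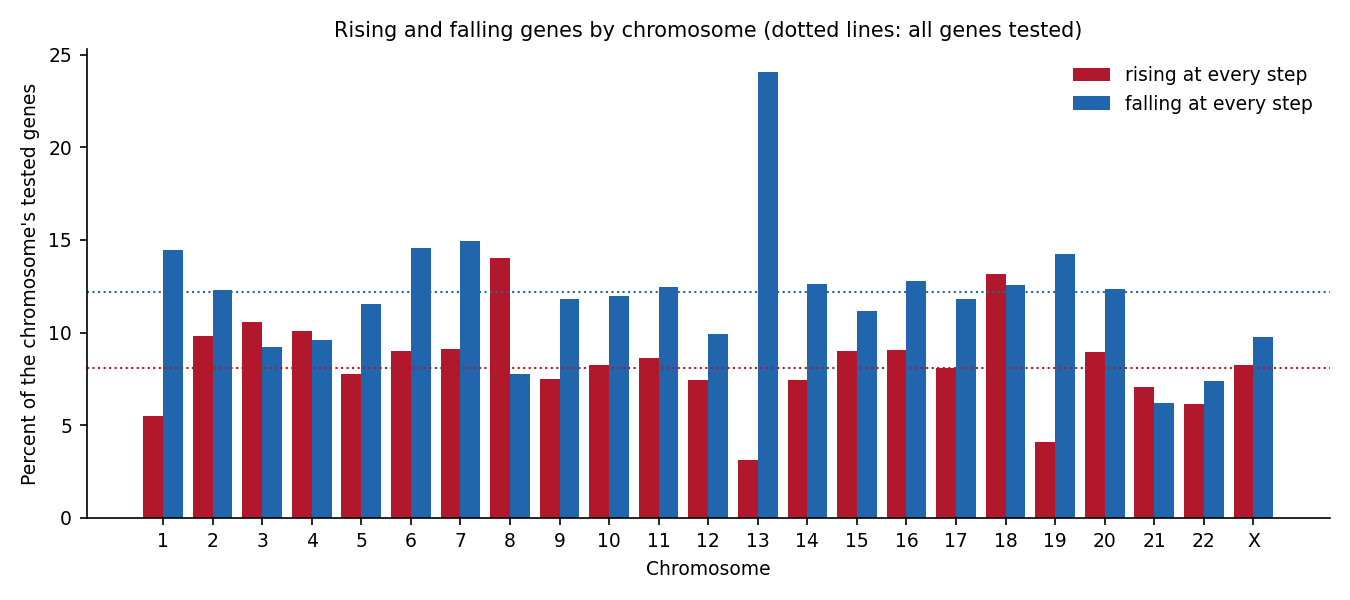
Percent of the tested genes of each chromosome that rose (red) or fell (blue) at every step, with dotted lines at 8.09% and 12.2% for all genes. Chromosome 13 reaches 24.1% falling and chromosome 8 14.0% rising.

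Rising genes had shorter and falling genes longer transcripts than the rest. The median length of the longest annotated transcript was 3315 bases for rising, 4136 for falling and 3596 for all genes, with lengths found for 98.3%, 97.4% and 97.2%. The median GC content was 46.4%, 48.5% and 48.5%. Because read numbers grow with length, short transcripts carry more counting error, and the part of length in the result was not tested. The share of members on loci that overlap another gene was 28.1% and 26.2%, against 25.2% of all genes.

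At the edge of the selection, ZC3H6 (mean 1.00 FPKM, rising) and PCDHB14 (mean 1.00 FPKM, falling) were just inside the mean of 1 FPKM, and HCN4 (0.997 FPKM) and ZNF354C (0.987 FPKM) just outside. ZC3H6, at 0.323, 0.489, 1.02 and 2.18 FPKM, passed the mean only through its upper values, as other genes near the threshold can. ZCCHC9 entered as a rising gene with 20.143 and 20.144 FPKM on either side of its first step. MAN2A1, at 7.47, 7.47, 9.76 and 26.5 FPKM, missed the rising genes by the same kind of margin, and RANBP2, at 14.5, 10.9, 7.64 and 7.64 FPKM, the falling ones. Membership alone thus separates genes whose values are alike.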

How the data were processed

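RNA of 6 cultures was sequenced with 1 library each. Per the labels' protocols, polyadenylated RNA was enriched on beads, a strand-preserving kit was used, and a NextSeq gave reads of 75 bases from 1 end. The deposited table gives FPKM values per gene and library, per the file headers; a small part of its cells hold text, so the unit was recorded as other. STAR 2.5.0, RSEM 1.2.25 and the build GRCh38 are named in the submitters' processing notes. The positions in the table are those of GRCh37, with 13.8% of 20819 shared names overlapping their GRCh38 position, and the layout is that of a Cufflinks table, so which program made the values remains unsettled. The filter applied by the authors is not given in the sources used here.

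Of 25275 entries, 1304 off the main chromosomes, 240 with text for a value, 28 named as a date and 306 names with several loci were left out, and 23145 genes were kept. Values were put on log2(FPKM + 1), with a pseudocount of 1. Counts, shares and medians were computed with Python 3.11.15, numpy 2.4.6 and pandas 2.3.3. No p-value is given, since each culture has 1 library and the members were chosen on the A2780 values. Precision cannot be stated without replicates, and absolute depth per library is known only as the average in the labels.

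Genes were named by rule: per direction the 15 with the largest smallest step, the 10 and 5 ranked by the smaller of that step and the shared or opposite OVCAR3 difference, up to 4 per list by total change, and genes at the threshold, leaving out unnamed loci, pseudogenes, small RNAs, antisense and read-through entries. The members and the 43 gene lists were chosen with earlier results of these data known. Promoters came from RefSeq, the first listed start per symbol, and transcript lengths from GENCODE. Alternatives were other filters, pseudocounts, scalings and step sizes, loci without overlap, and each A2780 culture left out. Counts for families, chromosomes and neighbours under those settings were added after seeing the data.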

Additional observations from a re-analysis of the deposited data

Results flagged for a closer look

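Of the 15 genes per direction with the largest smallest step in A2780, 11 rising and 11 falling genes differed the opposite way in OVCAR3. Among these 15, 2 rising and 8 falling genes averaged under 1 FPKM over the OVCAR3 pair, so their direction there rests on low values. Over all genes measured in both lines, 46.1% were lower and 53.9% higher in OVCAR3-COL11A1. Given here are 5 per direction, ranked by the smaller of the smallest A2780 step and the opposite OVCAR3 difference; the difference between the lines was not tested, since it is 1 library against 1. Among rising genes the OVCAR3 difference (COL11A1 minus GFP, log2(FPKM + 1)) was -0.82 for SNHG3, at 5.42 and 2.64 FPKM. It was -0.63 for ACY1, -0.63 for CIB1, -0.61 for GSTO1 and -0.52 for HSPB11. Among falling genes it was 1.28 for CAV1, at 8.69 FPKM with GFP and 22.5 FPKM with COL11A1. It was 0.83 for SULF1, 0.71 for POSTN, 0.56 for FREM2 and 0.47 for HIST1H1C. POSTN and FREM2 stayed under 1 FPKM in both OVCAR3 libraries. Over all 1273 measured falling genes the median OVCAR3 difference was 0.15, the opposite of their direction in A2780, beside 0.06 for all genes.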

How the results depend on the processing

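Leaving out 1 A2780 culture, which also removes a step from the rule, gave 2047 to 2913 rising and 2789 to 3582 falling genes, 397 to 599 with a clear rise and 471 to 1097 with a clear fall. The rising genes higher in OVCAR3-COL11A1 were then 45.4% to 58.1% and the falling genes lower 37.2% to 49.1%, with median differences of -0.065 to 0.11 and 0.011 to 0.19. Median scaling gave 43.6% and 44.7%, with medians of -0.11 and 0.068, beside a background of 49.1% and 50.9%. Quantile normalization gave 43.8% and 48.3%, with medians of -0.081 and 0.023, beside 48.2% and 51.7%. Under both scalings each share stayed below its background; of members, 45.9% and 44.8% rose, against 39.9% unscaled. A smallest step of at least 0.1 left 341 rising and 622 falling genes, and a clear step of 0.5 left 6 and 8. Clear rises numbered 94 with a pseudocount of 0.1 and 36 on loci without overlap. Among list counts 465 of 516 alternatives stayed within 1.5 times the count, and among named genes 870 of 894 kept their smallest step within 0.25 and its direction. Part of both counts was fixed by construction. A change of expression filter cannot alter the steps of a named gene, and the pseudocount cannot alter a list count. The cause of the changes between settings was not tested, other than that fewer cultures or a larger step change the count by construction. No paired analysis was possible because the labels give 1 library per culture. Depth limits low values most in A2780CIS and OVCAR3-COL11A1, the shallowest libraries of their lines.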

Other observations

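Positions were also counted in windows of 10 Mb with at least 20 tested genes, 221 in all, and the extremes were picked after their values were seen. Of all genes tested 8.09% rose and 12.2% fell. On chromosome 19 from 20 to 30 Mb (GRCh37), 9 of 20 genes fell, 8 of them zinc finger genes of the ZNF family such as ZNF91, and 0 rose. On chromosome 13 from 30 to 40 Mb, 9 of 25 fell and 0 rose, with a median last step of -1.10, and BRCA2, FREM2 and POSTN were among the 9. On chromosome 1 from 90 to 100 Mb, 12 of 32 fell and 0 rose, with a median last step of -1.02. The highest shares of rising genes were smaller, 7 of 27 on chromosome 6 from 150 to 160 Mb and 7 of 27 in the first 10 Mb of chromosome 3, where BHLHE40 and EDEM1 lie.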
